A study of Mus musculus with 32 samples.

Results

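Irs1, Irs2, Pik3cd, Pak1, Klf4 and Psme3 are 6 genes of growth signalling that were reported as targets of miR-7 in other studies, and they were taken by symbol from the 45706 genes of the deposited table. Total RNA sequencing was done on BV-2, a mouse microglial line (wild-type genotype, immortalised), in 32 libraries. The cells had been transfected with a scramble control or with a mimic, a synthetic RNA duplex that loads a single mature microRNA (miRNA) into the cell's silencing machinery, and were given either vehicle (VEH) or 10 ng/ml of lipopolysaccharide (LPS, the outer membrane component of Gram-negative bacteria) for 24 h. The 8 groups held 4 libraries each. Transfections were scramble, miR-7a (the mimic of miR-7a-5p), miR-29a (of miR-29a-3p) or miR-146a (of miR-146a-5p), and groups are named by treatment and transfection, as in LPS_miR-7a. The labels place LPS before transfection and the study's methods do not, the labels call the cell type a glioblastoma, and they carry an age of mice that cannot apply to a cell line.

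Irs1 and Irs2 are adaptor proteins that carry the signal from the insulin and insulin-like growth factor receptors to phosphoinositide 3-kinase (PI3K). Pik3cd encodes the catalytic delta subunit of PI3K, which predominates in leukocytes, and Pak1 is a kinase that RAC and CDC42 activate to reshape the actin cytoskeleton. Klf4 is a zinc finger transcription factor of the Krüppel-like family, and Psme3 encodes the gamma activator of the nuclear proteasome. A miRNA guides the silencing complex to mRNAs that pair with its seed, mostly in the 3′ UTR, which lowers translation and mRNA stability.

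The mature miRNAs below, from RefSeq, are the ones the mimics stand for, and the capitals mark the seed (bases 2 to 8). The 3 seeds differ from each other.

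mmu-miR-7a-5p: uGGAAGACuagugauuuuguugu
mmu-miR-29a-3p: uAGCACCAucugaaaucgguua
mmu-miR-146a-5p: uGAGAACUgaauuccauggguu

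The sites for miR-7a-5p in the members are shown in windows of 30 bases because they set apart Pak1, which had none. The search used the sense strand of the longest annotated 3′ UTR of each gene (GENCODE transcripts, build GRCm38). It took GTCTTCC (pairing with bases 2 to 8, a 7mer-m8 site) and the same letters followed by A (GTCTTCCA, an 8mer site). The capitals mark the site.

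Irs1 7mer-m8, chr1:82237495-82237524, minus strand: caggacctcacGTCTTCCtcttcagtagat
Irs2 7mer-m8, chr8:10985514-10985543, minus strand: gcaatgcagctGTCTTCCtgcttccgttgc
Irs2 8mer, chr8:10984822-10984851, minus strand: ccctccctgttGTCTTCCActgtacatgct
Pik3cd 8mer, chr4:149650316-149650345, minus strand: tcgaacccctaGTCTTCCAacctgtgggtc
Klf4 7mer-m8, chr4:55528033-55528062, minus strand: cctttcacactGTCTTCCcacgaggggagg
Klf4 7mer-m8, chr4:55527457-55527486, minus strand: aatctagttttGTCTTCCgatctacattga
Psme3 8mer, chr11:101323199-101323228, plus strand: tattcctctccGTCTTCCAatcccaaatca

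Thus 5 of the 6 members held at least 1 such site, against 12% of all 20720 genes with an annotated 3′ UTR. The members were chosen as reported targets of miR-7, so this difference may follow from that choice. The Irs1 3′ UTR of 4525 bases had 1 site, and 32.2% of the 1225 3′ UTRs of like length (within 20%) had at least 1. Irs2 had 2 sites in 2329 bases and Klf4 2 sites in 982 bases, where 19.4% and 9.31% of 3′ UTRs of like length had at least 1. Pik3cd (1472 bases) and Psme3 (1665 bases) each had 1 8mer site and 1 more match to TCTTCCA, the weaker 7mer-A1 form that pairs with bases 2 to 7 and has an A opposite base 1. The Pik3cd 8mer was present in all 6 of its annotated transcripts with a 3′ UTR. Neither of the 2 annotated 3′ UTRs of Pak1 held a site, the longer of which had 1199 bases. For the other mimics, miR-29a-3p had 1 site in Irs1 and 1 in Klf4, and miR-146a-5p had 1 in Klf4. A match describes these letters only and is no measure of binding. The level of each miRNA in the cells was not analysed here.

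Library totals ran from 1213860 to 21033125 counts, and levels are given as CPM, the count of a gene per 1000000 counts of the library (TMM-scaled for the members). In a library 3 counts corresponded to 0.143 to 2.47 CPM by the library total, and to 0.146 to 4.16 CPM with the TMM scaling of the members. Of the 15 microglia and macrophage markers, 13 had a median above 1 CPM in every group, while Cx3cr1 had a median of 0.652 CPM over all libraries and Sall1 was at 0 in 26 of 32. The summed level of these markers was 3623 to 7401 CPM per library, and that of 9 astrocyte and glioma markers was at most 3.52 CPM, with Gfap at 0 in 26 libraries. VEH_miR-7a replicates 2 to 4 stood apart, with 36.3% to 38.8% of counts from small structural RNA genes, against 4.25% in replicate 1 of that group and 2.65% to 18.8% in the other libraries. Their totals were 1213860 to 2509637 counts, so values of the members in VEH_miR-7a rest on few counts. With replicate 1 as the only library of VEH_miR-7a, 0 members were called in the 4 comparisons that use this group, and Pik3cd under vehicle moved from -0.41 to -0.18 on the log2 scale. Whether the structural RNA had a part in the vehicle results was not tested further.

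Expression of the members spanned a wide range. Per kilobase of exon, the median over the 32 libraries was 26.2 CPM for Pik3cd, 23.8 for Psme3, 11.5 for Pak1, 2.11 for Irs2 and 0.913 for Klf4. Pik3cd lay above Psme3 in only 18 of 32 libraries, so the order of these 2 was not settled. Psme3 lay above Pak1 and Pak1 above Irs2 in 32 of 32 libraries, and Irs2 above Klf4 in 30 of 32. The plot of levels per length shows this order, with the spread over libraries.

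**Figure D1:**
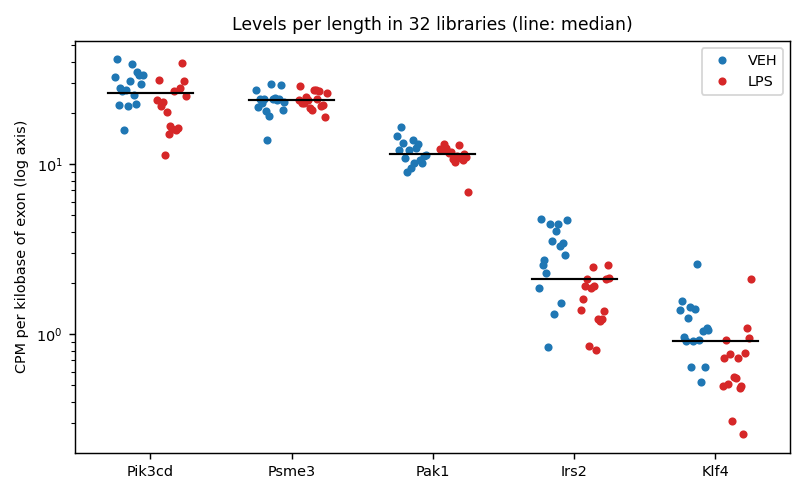
Level of each expressed member per kilobase of exon (CPM per kb, log axis) in 16 vehicle libraries (blue) and 16 LPS libraries (red), with the median of 32 libraries as a line. Pik3cd (median 26.2) and Psme3 (23.8) overlap at the top, and Klf4 (0.913) is lowest.

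Irs1 (ENSMUSG00000055980, chr1:82233101-82291416, minus strand, overlapped by Gm9747 on the other strand) was barely detected. It had 10 counts in all, was at 0 in 26 of 32 libraries and reached at most 4 counts, in VEH_miR-146a replicate 2. All 8 miR-7a libraries were at 0, and so were the 4 VEH_scramble libraries, while LPS_scramble held 1 count. With these counts no change with a mimic or with LPS was detectable, and Irs1 did not pass the filter on low counts in any comparison. The other 5 members passed it in all of them, and every value of theirs was read with a posterior probability of at least 0.99989 for the place of its decimal mark.

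The comparisons of miR-7a with scramble asked whether these genes were lower with the miRNA they are reported to answer to. None of the 5 members tested was called under LPS or under vehicle (adjusted p under 0.05 and absolute log2 fold change above 0.3 by limma-voom). Over all genes, 2.84% of 13084 were called under LPS (1.22% lower) and 0.198% of 11117 under vehicle. In these comparisons 2285 and 1412 genes had an unadjusted p under 0.05. DESeq2 called more genes than limma, 808 under LPS and 259 under vehicle. Of the members it called 1 under LPS, Pik3cd, and 0 under vehicle.

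Pik3cd (ENSMUSG00000039936, chr4:149649168-149702571, minus strand, Mir7023 within it on the same strand) had the largest difference among the members under LPS. It stood at 149, 195, 138 and 144 CPM in LPS_scramble replicates 1 to 4 and at 70.3, 127, 94.6 and 104 CPM in LPS_miR-7a, means of 157 ± 26.2 and 99.0 ± 23.5 (SD, n = 4). The groups did not overlap, as was the case for 11.6% of all genes (6.15% lower), and each LPS_miR-7a library lay below the scramble library of its number (19.4% of genes). The log2 fold change of -0.67 (SE 0.18, 95% interval -1.06 to -0.28) missed the threshold by limma (adjusted p 0.0708). Same-numbered libraries of these groups deviated together, and with the replicate number as a block Pik3cd was called at -0.65 (limma adjusted p 0.00363), where 8.91% of genes were called. DESeq2 also called it (adjusted p 0.0152) and edgeR did not (adjusted p 0.0743).

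Under vehicle Pik3cd was 203, 258, 139.7 and 175 CPM in VEH_scramble and 169, 98.6, 171 and 137 CPM in VEH_miR-7a. The groups overlapped and 3 of 4 libraries were lower than their number in scramble. The log2 fold change was -0.41 (95% interval -0.92 to 0.10, limma adjusted p 0.49). The difference between the change under LPS and that under vehicle was -0.28 (95% interval -0.93 to 0.36, and -0.44 to -0.13 with 1 library left out) and was not called in the interaction test (limma adjusted p 0.96), where 0.0735% of 12253 genes were called. The remaining vehicle groups stood close to scramble, with means of 184 ± 44.4 CPM in VEH_miR-29a and 205 ± 13.8 CPM in VEH_miR-146a (SD, n = 4). Ordered by mean, the groups ran from LPS_miR-7a (99.0 CPM) over LPS_miR-29a, VEH_miR-7a, LPS_scramble, VEH_miR-29a, LPS_miR-146a and VEH_scramble to VEH_miR-146a (205 CPM). Each group overlapped its neighbours in this order.

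Under LPS, Pik3cd lay below scramble with miR-29a and above it with miR-146a, and neither difference was called without the block. LPS_miR-29a held 101, 168, 99.9 and 102 CPM, and LPS_miR-146a held 176, 245, 193 and 156 CPM. In each of the 4 replicate numbers the miR-29a library lay below scramble and the miR-146a library above it, although the groups overlapped. Over all genes, 20.4% were lower in 4 of 4 numbers with miR-29a and 18.3% higher with miR-146a. The log2 fold change was -0.43 with miR-29a (limma adjusted p 0.206) and 0.29 with miR-146a (limma adjusted p 0.364), neither of which was called, against 4.96% and 2.32% of all genes. With 1 library left out these ran from -0.62 to -0.31 and from 0.17 to 0.41. With the replicate block Pik3cd was called in both, at -0.42 (limma adjusted p 0.0156) and 0.30 (limma adjusted p 0.0482), where 10.1% and 10.2% of genes were called. Without LPS_miR-29a replicate 2, the library at 168 CPM, the miR-29a change was called at -0.62 (limma adjusted p 0.0288). These 3 comparisons share the LPS_scramble libraries. Pik3cd has no site for miR-29a-3p or miR-146a-5p in its 3′ UTR.

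Comparisons of the mimics with each other hold no scramble library. LPS_miR-7a against the mean of LPS_miR-29a and LPS_miR-146a gave Pik3cd -0.62 (95% interval -0.998 to -0.23). Pik3cd was not called by limma on these 12 libraries (adjusted p 0.0712), where 3.51% of 12829 genes were, and it was called by DESeq2 (adjusted p 0.0331) and by limma in one fit of all 32 libraries (adjusted p 0.0288). Since the mean joins 1 group below scramble and 1 above it, each pair with miR-146a was compared as well, a choice made after the values were seen. Pik3cd was lower in LPS_miR-7a than in LPS_miR-146a by 0.97 on the log2 scale (-0.97, SE 0.19, limma adjusted p 0.0143), with no overlap (14.8% of genes, 6.37% lower). In 4 of 4 numbers it was lower (18.7% of genes), with numbers that did not pair these libraries. There 6.25% of 12569 genes were called (2.55% lower). LPS_miR-29a was also lower than LPS_miR-146a (-0.74, limma adjusted p 0.0288), with 11.9% of genes called (6.56% lower). The first call was lost without LPS_miR-7a replicate 3 (limma adjusted p 0.052). The second was lost without LPS_miR-29a replicate 1, 3 or 4 or without LPS_miR-146a replicate 2 or 3 (limma adjusted p 0.0713 to 0.081). LPS_miR-7a lay below LPS_miR-29a in 3 of 4 numbers, a difference that was not tested.

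**Figure D2:**
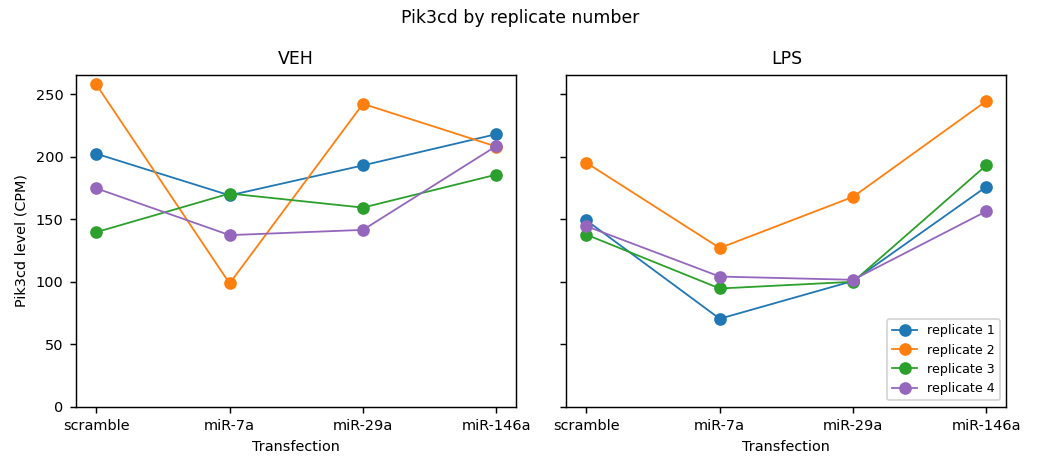
Pik3cd level (CPM) in each library under vehicle (left) and LPS (right), with lines joining libraries of the same replicate number across the 4 transfections. Under LPS each of the 4 lines lies below its scramble value with miR-7a and with miR-29a and is highest with miR-146a. Under vehicle the order of the transfections differs between the lines.

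Irs2 (ENSMUSG00000038894, chr8:10984681-11008458, minus strand, overlapped by 9530052E02Rik on the other strand) showed no difference with its 2 sites for miR-7a-5p that exceeded the spread. LPS_scramble held 8.71, 10.2, 12.1 and 13.3 CPM and LPS_miR-7a 5.37, 11.7, 15.7 and 12.1 CPM. The LPS_miR-7a libraries lay on both sides of the scramble range, and the 95% interval of the log2 fold change ran from -0.66 to 0.53. VEH_scramble held 11.8, 30.04, 16.2 and 17.2 CPM and VEH_miR-7a 14.5, 5.28, 28 and 22.2 CPM, where the value of 5.28 rests on 6 counts, and the interval ran from -1.07 to 0.69. Under vehicle the 4 groups had means of 17.5 to 20.7 CPM and SDs of 7.85 to 9.84 (n = 4), and LPS groups other than miR-29a averaged 11.1 to 12.9 CPM.

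Lower Irs2 was seen with miR-29a under LPS, for which its 3′ UTR has no site. LPS_miR-29a held 5.07, 7.79, 7.50 and 7.75 CPM, all below the LPS_scramble libraries, with a mean of 7.03 ± 1.31 against 11.1 ± 2.04 (SD, n = 4). Groups without overlap made up 13.2% of all genes in that comparison (6.55% lower). The log2 fold change of -0.67 (SE 0.19) was not called by limma (adjusted p 0.0662, and 0.127 with the replicate block), but was by DESeq2 (adjusted p 0.0389). Against LPS_miR-146a, with 8.67, 13.4, 16 and 13.5 CPM, LPS_miR-29a differed by -0.80 (limma adjusted p 0.0531). This was called by DESeq2 (adjusted p 0.0104), by edgeR (adjusted p 0.0432), by limma-trend (adjusted p 0.0475) and by limma at a posterior minimum of 0.99 (adjusted p 0.0436). It was also called with the replicate block at -0.90 (limma adjusted p 0.0107), where 25.4% of genes were called, and without LPS_miR-146a replicate 1 at -1.01 (limma adjusted p 0.022).

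Pak1 (ENSMUSG00000030774, chr7:97788541-97912381, plus strand) had no site for any of the 3 miRNAs and had a lower mean in every mimic group than in scramble. VEH_scramble held 57.6, 47.5, 65.5 and 52.3 CPM, VEH_miR-7a 42.7, 35.2, 47.5 and 37.5 CPM, and VEH_miR-146a 41.6, 39.9, 44.1 and 44.9 CPM. Under LPS the scramble libraries stood close together at 48.5, 47.6, 51.8 and 48.9 CPM and the miR-7a libraries just below at 47.2, 45.5, 46.6 and 42.3 CPM. In 6 of 6 comparisons with scramble, each mimic library lay below the scramble library of its number. Such a run of 4 was found for 11.8% of all genes in VEH_miR-7a, 13.5% in VEH_miR-29a, 21% in VEH_miR-146a, 19.4% in LPS_miR-7a, 20.4% in LPS_miR-29a and 18.7% in LPS_miR-146a. The 6 comparisons are not independent, since the comparisons within a condition share their scramble libraries. For VEH_miR-7a and VEH_miR-146a the numbers did not pair the libraries with those of scramble.

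None of the log2 fold changes of Pak1 was called, although its groups did not overlap in 3 of the 6 comparisons with scramble. These were LPS_miR-7a, where 11.6% of all genes had no overlap (6.15% lower), LPS_miR-146a and VEH_miR-146a. For the latter 2 that share is not given. Under vehicle they were -0.43 in VEH_miR-7a (95% interval -0.83 to -0.02, limma adjusted p 0.37), -0.19 in VEH_miR-29a and -0.38 in VEH_miR-146a (limma adjusted p 0.152). Under LPS they were -0.11, -0.12 and -0.30, in the same order. The LPS_miR-146a mean of 39.2 ± 8.30 CPM (SD, n = 4) included 1 low library, replicate 4 at 27 CPM.

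Klf4 (ENSMUSG00000003032, chr4:55527143-55532466, minus strand), with 2 sites for miR-7a-5p and 1 for each of the other miRNAs, was scarce. It held 2 to 38 counts in a library, so its intervals are wide. LPS_scramble held 1.51, 2.19, 2.81 and 1.56 CPM and LPS_miR-7a 2.34, 0.935, 1.71 and 1.68 CPM. The groups overlapped, 2 of 4 numbers were lower, and the interval of the log2 fold change was -1.06 to 0.39. VEH_scramble held 4.21, 4.81, 2.92 and 2.79 CPM and VEH_miR-7a 3.81, 4.40, 1.95 and 2.77 CPM. Each of the latter lay below its number in scramble (11.8% of genes), numbers that did not pair these libraries, although the fit on these 8 libraries, with its own scaling, gave -0.00 (95% interval -0.92 to 0.91). LPS_miR-146a held 2.35, 3.29, 2.90 and 6.45 CPM and lay above scramble in 4 of 4 numbers (18.3% of genes), at 0.64 on the log2 scale without being called (limma adjusted p 0.374). LPS_miR-7a lay below LPS_miR-146a without overlap (14.8% of genes, 6.37% lower), at -0.996 (95% interval -1.83 to -0.16), and this was not called either (limma adjusted p 0.153). Klf4 in LPS_miR-29a, at 2.20, 1.48, 1.51 and 0.788 CPM, was also below LPS_miR-146a without overlap (18.2% of genes, 8.66% lower), at -1.15 (limma adjusted p 0.0795). This was called by DESeq2 (adjusted p 0.0353) and by limma in one fit of all 32 libraries (adjusted p 0.0319). The highest and most scattered vehicle group of Klf4 was VEH_miR-29a, at 4.26, 7.90, 2.81 and 1.59 CPM.

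Psme3 (ENSMUSG00000078652, chr11:101316213-101323537, plus strand) was called in no comparison. LPS_scramble held 70.4, 84.7, 67.5 and 67.2 CPM and LPS_miR-7a 73.5, 69.7, 63.3 and 61.5 CPM, which overlapped. It holds an 8mer site, and the log2 fold change was -0.11 (95% interval -0.39 to 0.16, limma adjusted p 0.709). VEH_scramble held 80.3, 64.3, 71.0 and 67.5 CPM and VEH_miR-7a 71.0, 60.7, 41.0 and 56.9 CPM, with 4 of 4 numbers lower (11.8% of genes, with numbers that did not pair these libraries) and a log2 fold change of -0.30 (95% interval -0.73 to 0.13, limma adjusted p 0.558). The lowest of these values, 41.0 CPM, is from 1 of the 3 libraries rich in structural RNA, and the log2 fold change was -0.14 without it and -0.48 without VEH_miR-7a replicate 1. LPS_miR-29a held 80.1, 80.8, 71.6 and 79.5 CPM and LPS_miR-146a 64.3, 65.2, 55.5 and 77.4 CPM, a difference of 0.27 on the log2 scale (limma adjusted p 0.206). All 8 group means lay between 57.4 and 78.0 CPM.

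**Figure D3:**
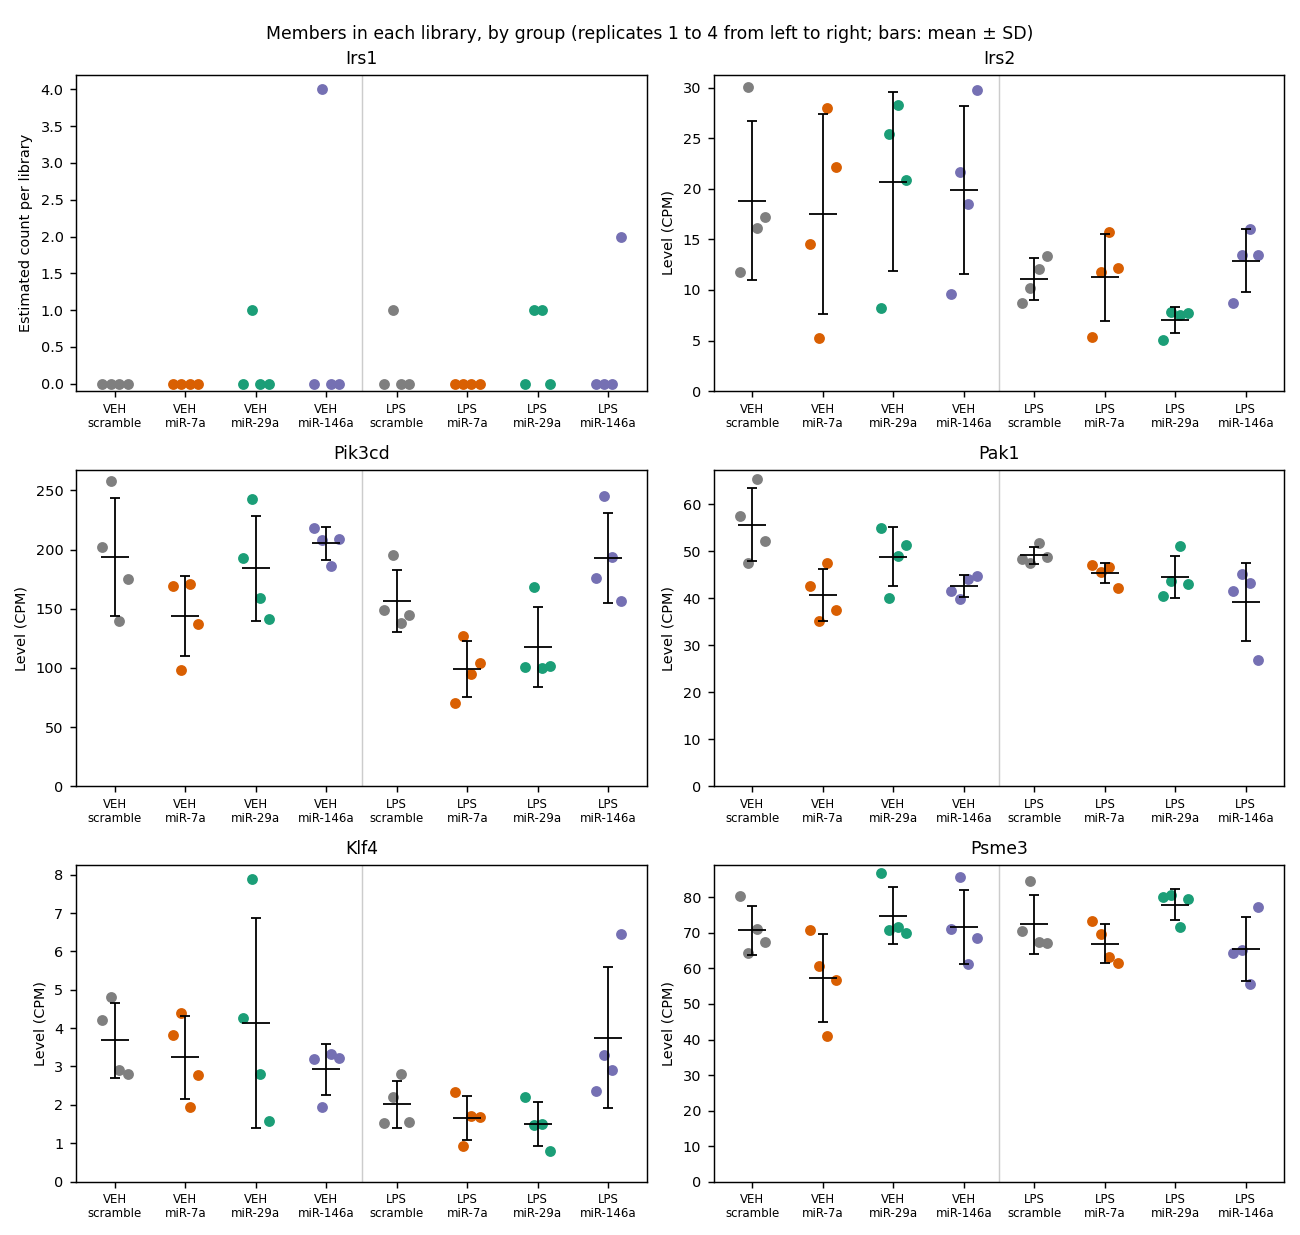
Each member in every library by group, replicates 1 to 4 from left to right, as CPM with mean and SD (n = 4), except Irs1, which is given in counts. Pik3cd is lowest in LPS_miR-7a (mean 99.0 CPM) and Irs2 in LPS_miR-29a (7.03 CPM), and Irs1 has at most 4 counts.

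Over the 6 comparisons of a mimic with scramble, 0 of 30 tests of a member were called by limma-voom without the block. This includes miR-29a and miR-146a under vehicle, where 0.0171% and 2% of all genes were called and 1207 and 2979 had an unadjusted p under 0.05. DESeq2 called 0 members in those 2 comparisons.

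**Figure D4:**
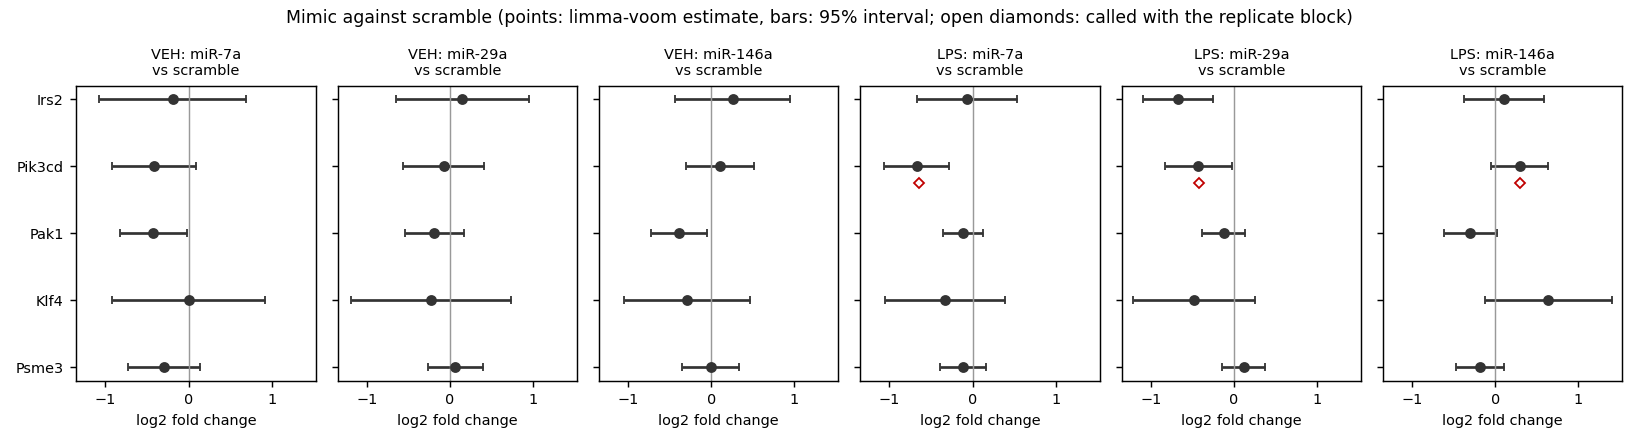
Log2 fold change of each member with a mimic against scramble under vehicle (3 panels on the left) and LPS (right), with 95% intervals from limma-voom and open diamonds where the fit with the replicate block called the gene. No interval belongs to a called gene, and the diamonds mark Pik3cd at -0.65, -0.42 and 0.30 under LPS.

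LPS itself was compared with vehicle within each transfection. In scramble cells 17.8% of 12337 genes were called, and 0 of the 5 members. By DESeq2 Irs2 was called (adjusted p 0.0479), and 4125 genes had an unadjusted p under 0.05. Irs2 fell short of the threshold by limma at -0.59 (adjusted p 0.128), and without VEH_scramble replicate 1 it was called at -0.80 (limma adjusted p 0.0401). Klf4 stood at -0.81 (limma adjusted p 0.0923), and both were lower in 4 of 4 numbers, as were 22.2% of all genes.

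In miR-29a cells, where 26.5% of 12263 genes were called (13.1% lower), Irs2 and Pik3cd were downregulated by LPS. VEH_miR-29a held 8.26, 25.4, 28.3 and 20.8 CPM of Irs2, each above every LPS_miR-29a library, and 28.4% of all genes had groups without overlap (12.7% lower). The log2 fold change was -1.44 (SE 0.33, limma adjusted p 0.00761), and it was called with any 1 library left out. Pik3cd fell from 193, 242, 159 and 142 CPM to 101, 168, 99.9 and 102 CPM, with overlap but 4 of 4 numbers lower (26.6% of all genes), at -0.66 (SE 0.20, limma adjusted p 0.0326). That call was lost without VEH_miR-29a replicate 1 or 2 or without LPS_miR-29a replicate 1, 3 or 4 (limma adjusted p 0.0624 to 0.0877). With the replicate block, which called 37% of genes, Klf4 was called as well at -1.41 (limma adjusted p 0.0151), against -1.07 without it (limma adjusted p 0.112). Klf4 was also called by DESeq2 (adjusted p 0.0221), by limma in one fit of all 32 libraries (adjusted p 0.048) and without VEH_miR-29a replicate 4, at -1.60 (limma adjusted p 0.0243).

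That Irs2 was called with LPS in miR-29a cells and not in scramble cells does not show that the change differed. The interaction was -0.85 for Irs2 (95% interval -1.78 to 0.08, limma adjusted p 0.8) and -0.36 for Pik3cd (95% interval -0.99 to 0.28, limma adjusted p 0.895). This test was added after the values were seen, and it called 0.0242% of 12420 genes (801 at an unadjusted p under 0.05).

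In miR-7a cells 6.71% of 11900 genes were called with LPS, and in miR-146a cells 4.44% of 12123, with 0 members in either by limma and by DESeq2. An unadjusted p under 0.05 was reached by 2430 and 2224 genes. Pik3cd in miR-7a cells stood at -0.59 (95% interval -1.06 to -0.12, limma adjusted p 0.139) and Klf4 at -1.16 (95% interval -2.13 to -0.18, limma adjusted p 0.163). Irs2 stood at -0.47 in miR-7a cells (-0.76 to -0.21 with 1 library left out) and -0.76 in miR-146a cells. The estimates of Irs2 and of Pik3cd lay below 0 in all 4 transfections. Psme3 and Pak1 stayed between -0.18 and 0.17 in the 4 comparisons.

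**Figure D5:**
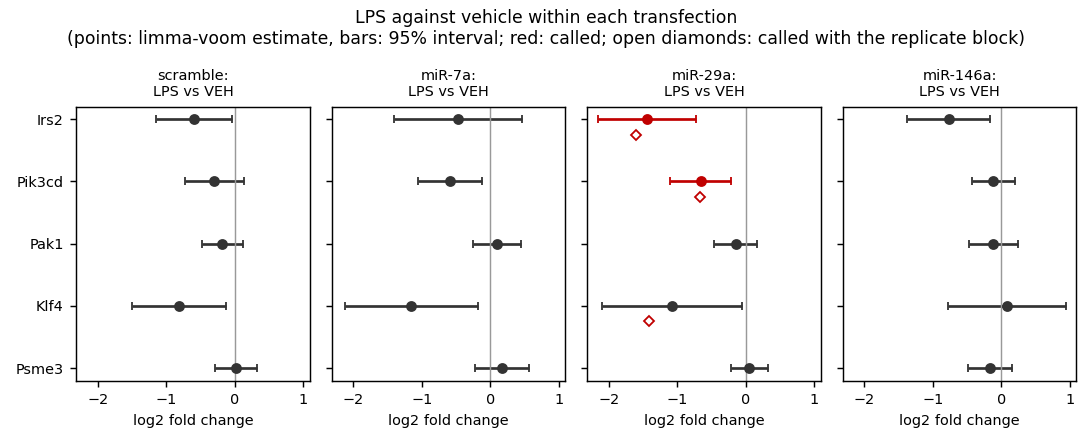
Log2 fold change of each member with LPS against vehicle within each transfection, with 95% intervals from limma-voom, called genes in red and open diamonds where the fit with the replicate block called the gene. Irs2 (-1.44) and Pik3cd (-0.66) are called in miR-29a cells, and Klf4 there with the block.

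The pathways around the members were described from fixed lists by counts. Among genes next to the insulin receptor, miR-7a under LPS changed 1 of 17 tested, in a comparison that called 2.84% of all genes: Ptpn1, the phosphatase that switches the receptor off, rose by 0.76 on the log2 scale (limma adjusted p 0.0381). The list had a median log2 fold change of -0.12, against 0.01 over all genes tested. With miR-29a under LPS its median was -0.17, with 3 of 17 called lower, where 4.96% of all genes were called. With miR-146a under LPS it was 0.20, with 1 of 17 called lower, where 2.32% were called. Among 34 genes of PI3K, AKT and mTOR signalling 1 changed with miR-7a under LPS, in a list with a median of -0.01. It was Eif4ebp1, the repressor of cap-dependent translation that mTOR inactivates, which fell (-0.49, limma adjusted p 0.047). Among 18 genes of PAK, RAC and CDC42 signalling 0 changed, with 0.05 as the median. Limk2, a kinase downstream of PAK, had the smallest unadjusted p there (-0.29 on the log2 scale, limma adjusted p 0.227), before Git1 (0.24, limma adjusted p 0.376). With miR-7a under vehicle 0 genes of these 3 lists changed, and their medians were -0.21, -0.09 and -0.02 against -0.01 over all genes. Among the smallest unadjusted p there were those of Igf1 (0.69) and Gab2 (-0.42), of Mtor (-0.68), and of Nck1 (0.81) and Limk2 (-0.31), with limma adjusted p of 0.222 to 0.515. With LPS in miR-29a cells, where 26.5% of all genes were called, 1 gene next to the insulin receptor rose and 5 of 17 fell, and 3 genes of PI3K, AKT and mTOR signalling rose and 6 of 34 fell. In scramble cells, where 17.8% of all genes were called, these counts were 1 and 1, and 6 and 3. Against the other mimics 1 more gene fell under LPS, where 1.34% of all genes were called lower. It was Gab1, a docking protein of receptor tyrosine kinases with 1 site for miR-7a-5p (-0.98, limma adjusted p 0.0173), which was not called against scramble. Under vehicle 4.28% of all genes were called against the other mimics. There Cfl1, the actin-severing cofilin, was called higher (0.49, limma adjusted p 0.0443). The proteasome activator subunit Psme2 was called higher (0.53, limma adjusted p 0.0337) and the kinase Mtor lower (-0.74, limma adjusted p 0.0124). In lists without a call against the other mimics, the smallest unadjusted p under LPS were those of Pik3cb (-0.47) and Mtor (-0.39), Nck1 (0.39) and Cfl1 (0.28), and Psmb10 (0.53) and Psmb8 (0.28), with limma adjusted p of 0.155 to 0.292. Under vehicle they were those of Igf1r (-0.76) and Sos2 (-0.57), and of Klf13 (-0.69) and Klf9 (-0.26), with limma adjusted p of 0.0527 to 0.309.

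In the Klf family 2 of 10 tested genes rose with miR-7a under LPS, where 2.84% of all genes were called in either direction, Klf10 by 1.203 (limma adjusted p 0.00238) and Klf11 by 1.23 (limma adjusted p 0.0311), both transcription factors induced by transforming growth factor beta. Against the other mimics they rose too, by 0.90 and 0.91, while Klf2 fell (-1.23, limma adjusted p 0.00306). Klf2 averaged 9.91 ± 2.61 CPM in LPS_miR-7a, 15.04 ± 1.86 in LPS_miR-29a, 14.95 ± 3.54 in LPS_scramble and 36.0 ± 8.09 in LPS_miR-146a (SD, n = 4), so the mean of the other mimics was raised by miR-146a, and against scramble Klf2 was not called. None of these 3 holds a miR-7a-5p site. With miR-146a under LPS 2 of 10 Klf genes were also called higher against scramble, where 2.32% of all genes were called in either direction. Of 7 proteasome activators and immunoproteasome subunits 0 changed with miR-7a under LPS, and the smallest unadjusted p was that of Psmb10 (0.56, limma adjusted p 0.234), before Psme1 (0.29, limma adjusted p 0.332). The medians were -0.19 for the Klf family and 0.14 for the proteasome list. With miR-7a under vehicle 0 of 9 and 0 of 7 changed, with Klf7 (0.50), Klf13 (-0.64), Psme4 (0.35) and Psmb8 (-0.29) nearest to a call (limma adjusted p 0.365 to 0.501).

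Another 24 genes reported as miR-7 targets were listed, of which 19 were tested under LPS and 18 under vehicle. At least 1 gene of this list was called lower against scramble under LPS and at least 1 under vehicle. Over all genes 1.22% were called lower under LPS, and 0.198% in either direction under vehicle. VEH_miR-7a includes the libraries rich in structural RNA. Mknk2, a kinase that phosphorylates eIF4E, holds 1 8mer site in its mRNA and was called lower under vehicle (-1.07, limma adjusted p 0.0348). It averaged 366 ± 67.1 CPM in VEH_scramble and 174 ± 11.2 CPM in VEH_miR-7a (SD, n = 4). The medians of the list were 0.02 under LPS and -0.34 under vehicle, against 0.01 and -0.01 over all genes.

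That list was also compared against the other mimics. Under LPS Spata2, Mknk1 and Mknk2 were among those called lower and Ccne1, with no site, was called higher, and 1.34% of all genes were lower. Spata2, with 5 sites, stood at -0.90 (limma adjusted p 0.013). The mean of the other mimics again joins unequal groups. Mknk2 averaged 120.4 ± 37.8 CPM in LPS_miR-7a, 150.0 ± 46.9 in LPS_miR-29a, 199.98 ± 27.996 in LPS_scramble and 317 ± 60.0 in LPS_miR-146a, and Mknk1 51.3 ± 3.52, 55.0 ± 7.42, 70.3 ± 7.31 and 84.7 ± 7.30 CPM (SD, n = 4). For both genes LPS_miR-7a lay within 1 SD of LPS_miR-29a, a pair that was not tested. Under vehicle 4.28% of 11593 genes were called, and Mknk2 (-1.03), Mknk1 (-0.81) and Mtor were among the genes of the list that were lower, each with 1 site and Mtor being on both lists. None of the members was called in this comparison, where Pik3cd had -0.41 (limma adjusted p 0.21), Psme3 -0.32 (limma adjusted p 0.321) and DESeq2 also called 0.

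Over all genes, those with an 8mer site for miR-7a-5p had a median log2 fold change of -0.07 (458 genes) under LPS and -0.14 (426 genes) under vehicle, against 0.03 and 0.00 for genes without a site. Of the 3 members with an 8mer, Pik3cd lay far below that median under LPS, and Psme3 and Irs2 lay near it. The Pik3cd change stood lower than that of all but 4.89% of genes tested, that of Psme3 lower than all but 34.2%, and that of Irs2, whose sign differed between tools, lower than all but 39.99%.

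Across the 32 libraries, the gene most like Irs2 among 12446 was Mlxip, a glucose-responsive transcription factor (Pearson r 0.91 of log2 CPM), followed by Hs6st1 (0.86) and Atg2a (0.86). Pik3cd was most like Ppm1h (0.91), Rab11fip5 (0.90) and Ehbp1l1 (0.90). The highest r was lower for the others, at 0.78 for Pak1 (Eif3l, then Rpl3-ps1, a pseudogene that can share reads with its parent, and Wdr55), 0.76 for Psme3 (Fig4, then Taf2 and Ndufaf5) and 0.74 for Klf4 (Csk, then 9230102O04Rik and Hlx). These names depended on the measure: by Spearman's rho 2 of the first 3 were the same for Irs2 and for Pik3cd, 1 for Pak1 and for Klf4, and 0 for Psme3. Between members r reached 0.56 for Irs2 with Pik3cd and 0.50 for Klf4 with Pik3cd, and Irs2 with Psme3 gave -0.39. The libraries share conditions, replicate numbers and depth, so these values describe the table only.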

How the data were processed

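The authors prepared total RNA libraries after ribosomal RNA depletion and quantified them on the mouse build GRCm38 with the nf-core rnaseq workflow. The quantifier and annotation release are not given in the sources used here, and the submitters' notes name limma and edgeR. The deposited table holds estimated counts per gene whose decimal marks were lost, so that a fractional value reads far too large. Of 109458 values of 20000 or more, only 0.0155% end in 0, the digit that is dropped at the end of a decimal. The marks were restored by a model that weighs the size, the last digits and the gene's level in other libraries. It gave lost decimals to 28.1% of 590874 values above 0 and left 1.06% uncertain (posterior under 0.9), and a second reading was used for 24 highly expressed genes. Among the members 25 of 192 values had lost a mark, 17 of them of Pik3cd. Pik3cd in LPS_miR-146a replicate 3, for example, stands as 1868002 and was read as 1868.

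Restored values were rounded to whole counts. The main test was limma-voom (limma 3.58.1, edgeR 4.0.16, R 4.3.3) with filterByExpr and TMM on the libraries compared, after genes with an uncertain value there were left out. Alternatives were edgeR's quasi-likelihood test, DESeq2 (1.42.0), limma-trend, other scalings and filters, the values as deposited, and each library left out. Adjustment was by Benjamini-Hochberg over all genes, 2-sided. CPM used TMM library sizes. Levels between genes were compared per kilobase of exon. The restoration and the tests were checked on simulated data. For LPS_miR-7a against LPS_scramble, limma called 25.4% of 67 genes that were given an absolute log2 fold change of 0.7. It called 77.3% of 66 genes given 1 and 100% of 64 genes given 2. Of 13459 genes given no change it called 7. The restoration read 99.7% of the values above 0 there correctly.

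The members and gene lists were chosen with earlier results of these data known. All 6 members were named whatever their values. Of the lists, genes called with miR-7a against scramble or against the mean of the other mimics were named (at most 6 per list and comparison), where none was called the 2 with the smallest p, and for each member the 3 genes with the highest Pearson r. Part of the results of the lists, under LPS as under vehicle, is not reported here, so that not every gene this rule selects is named, and calls of the list of other reported targets are not counted. The labels number the replicates 1 to 4 in each group. The numbers were taken to pair libraries where each of the same-numbered pairs had a correlation of deviations over 0.1, as for the 3 mimics against scramble under LPS (lowest 0.109), miR-29a under vehicle, LPS in scramble and in miR-29a cells, and miR-29a against miR-146a under LPS. The study calls the replicates independent experiments. Intervals and floors cover counting error and the spread between these libraries only.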

Additional observations from a re-analysis of the deposited data

Results flagged for a closer look

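Of 40 groups of 4 libraries examined (5 members in 8 groups), 5 held a library whose distance to the nearest other was too large a part of the group's range by Dixon's test at 95%. Chance alone gives about 1 in 20. Pik3cd stood at 168 CPM in LPS_miR-29a replicate 2, with the other 3 libraries of that group between 99.9 and 102 CPM (Dixon's ratio 0.976). Irs2 was lowest in replicate 1 of the same group, at 5.07 CPM (ratio 0.892), and Psme3 in replicate 3, at 71.6 CPM (ratio 0.858). Klf4 was lowest in VEH_miR-146a replicate 2, at 1.94 CPM (ratio 0.912), which rests on few counts. Psme3 was highest in VEH_miR-29a replicate 1, at 86.9 CPM (ratio 0.890).

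Pik3cd under LPS moved in opposite directions by mimic in every replicate number. The mean log2 ratio to scramble was -0.68 with miR-7a and 0.29 with miR-146a, and -0.44 with miR-29a. The comparisons with miR-146a were tested directly, as given above, after these values were seen. Psme3 under vehicle was below scramble with miR-7a (mean log2 ratio -0.32) and above it with miR-29a (0.08) in every number, and this difference was not tested. For miR-7a under vehicle the numbers did not pair the libraries.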

How the results depend on the processing

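The limits of these values include those of the table and its depth. With 4 libraries a group and adjustment over all genes, log2 intervals of Klf4 and Irs2 spanned more than those of Pak1 and Psme3, and Irs1 could not be tested. Of 980 log2 fold changes of members recomputed under other settings, 916 kept their direction and their side of the threshold, 40 reversed, 5 lost and 19 gained a call. Of 759 log2 fold changes with 1 library left out, 709 did, 35 reversed, 11 lost and 4 gained a call. Apart from the values as deposited, the reversed estimates stood between -0.23 and 0.30 on the log2 scale as reported, the widest being those of Klf4.

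Pik3cd with miR-7a under LPS ranged from -0.80 to -0.53 on the log2 scale with 1 library left out, without a call in any of these fits. The number of members called was 1 by DESeq2 for miR-7a and for miR-29a against scramble under LPS, for miR-7a against the mean of the other mimics under LPS and for LPS in scramble cells, and 3 for miR-29a against miR-146a under LPS and for LPS in miR-29a cells. With the replicate block it was 1 for each of the 3 mimics under LPS and for miR-7a against the mean of the others under LPS, where the numbers did not pair, and 2 for miR-29a against miR-146a. The block changed the call of no other comparison except LPS in miR-29a cells, where it was 3. In one fit of all 32 libraries it was 1 for miR-7a against the mean of the others under LPS and 2, with Klf4 gained, for miR-29a against miR-146a under LPS, and 3 for LPS in miR-29a cells. For miR-29a against miR-146a it was also 2, with Irs2 gained, by edgeR, by limma-trend and at a posterior minimum of 0.99. Without the filter on low counts it was 1 for LPS in miR-29a cells, where Irs2 remained called and Pik3cd did not. The member gained for miR-7a against the mean of the others under LPS was Pik3cd (with the block, limma adjusted p 0.00204). How many of all genes DESeq2 called is given only for miR-7a against scramble, so its other counts of members stand without a share. The cause of the differences between settings was not tested.

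With the values as deposited, lost marks included, 0 members were called for LPS in miR-29a cells and for miR-7a or miR-29a against miR-146a under LPS. Pik3cd then stood at 2.32 on the log2 scale with miR-7a under LPS, 2.70 with miR-7a and 1.21 with miR-29a under vehicle, and 0.688 and 1.07 for miR-7a against the mean of the other mimics under LPS and vehicle. Psme3 stood at 1.61 with miR-7a and 0.0876 with miR-146a under vehicle, -2.99 with miR-29a under LPS, 1.96 and 1.73 for miR-7a against the mean of the others under LPS and vehicle, 3.04 for LPS in miR-146a cells, -2.57 and -3.14 in the interactions of miR-7a and miR-29a with LPS, and -1.13 for miR-29a against miR-146a under LPS. Klf4 was 0.128 with miR-29a, and Irs2 -0.112 and Pak1 1.40 with miR-146a, all under vehicle. By construction these values mix readings that differ in the place of the mark.

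The other reversals gave values near 0. By DESeq2, edgeR and the replicate block Irs2 with miR-7a under LPS was 0.0127, 0.0131 and 0.0756, and with the block under vehicle 0.0308. Klf4 with miR-29a under vehicle was 0.0915 by DESeq2 and 0.0623 by edgeR. Klf4 for miR-7a against the mean of the others under vehicle was -0.0371 by DESeq2, -0.0462 by edgeR and -0.0589 by limma-trend. Klf4 with miR-7a under vehicle was 0.0025 with median-of-ratios scaling, 0.00199 without structural RNA genes, 0.00139 with uncertain values kept and 0.123 with VEH_miR-7a replicate 1 as that group's one library. That last setting, chosen after seeing the data and assuming that the lone library varies like the other groups, gave Psme3 -0.106 for LPS in miR-7a cells and -0.122 in the interaction of miR-7a with LPS. Psme3 with miR-146a under vehicle was 0.0207 by DESeq2, 0.00523 by edgeR, 0.00162 in the fit of 32 libraries, 0.0101 with median-of-ratios scaling, 0.0188 without the filter, 0.00662 with the block and 0.000439 with uncertain values kept. Psme3 for LPS in scramble cells was -0.000195 without structural RNA genes.

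With each library left out in turn, the members called ranged from 0 to 1 for miR-29a against scramble under LPS, for LPS in scramble cells and for miR-7a against miR-146a under LPS, from 0 to 2 for miR-29a against miR-146a under LPS and from 1 to 3 for LPS in miR-29a cells. Log2 fold changes that crossed 0 in these fits were, for Irs2, -0.27 to 0.19 with miR-7a and -0.0476 to 0.31 with miR-146a under LPS, -0.45 to 0.12 with miR-7a and -0.0564 to 0.49 with miR-29a under vehicle, -0.39 to 0.0736 for miR-7a against miR-146a under LPS, and -0.18 to 0.37 in the interaction of miR-7a with LPS. For Klf4 they were -0.18 to 0.16 with miR-7a and -0.52 to 0.28 with miR-29a under vehicle, -0.0802 to 0.25 for LPS in miR-146a cells and -0.76 to 0.0357 in the interaction of miR-29a with LPS. Those of Pak1 were -0.16 to 0.0141 for LPS in miR-146a cells and -0.0385 to 0.094 in the interaction of miR-29a with LPS. With miR-7a under vehicle, without crossing 0, Pik3cd ran from -0.56 to -0.25 and Psme3 from -0.48 to -0.14, and the interactions of Pik3cd with LPS ran from -0.44 to -0.13 for miR-7a and from -0.54 to -0.22 for miR-29a. Pik3cd under vehicle ran from -0.0452 to 0.25 with miR-146a and from -0.23 to 0.0868 with miR-29a. Psme3 ran from -0.10 to 0.0801 with miR-146a and -0.0109 to 0.13 with miR-29a under vehicle, -0.0711 to 0.0683 for LPS in scramble cells, -0.0266 to 0.12 for miR-7a against miR-146a under LPS and -0.0193 to 0.14 in the interaction of miR-29a with LPS.

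Over all genes, the 372 called with miR-7a under LPS became 808 by DESeq2, 1166 with the block and 35 with the values as deposited. The 22 called with miR-7a under vehicle became 259 by DESeq2, 169 in the fit of 32 libraries and 5 with replicate 1 as the group's one library, and the 358 with the block rest on numbers that did not pair these libraries. For LPS in miR-29a cells 3251 became 229 with the values as deposited. Leaving out the filter moved the median log2 fold change of all genes by over 0.1 in several comparisons with vehicle libraries, to 0.31 for miR-7a against scramble under vehicle, since genes near 0 counts then set it.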
